A study of Mus with 15 samples.

Results

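The NADPH oxidase of phagocytes is the enzyme that makes superoxide during the respiratory burst. It was followed here through 6 genes, chosen by symbol from the 55471 genes of the deposited matrix. They were Cybb, Cyba, Ncf1, Ncf4 and Rac2 of the phagocyte enzyme, and Nox4, the catalytic subunit of a form found outside phagocytes. All 6 were found, and all 6 passed the filter on low counts which left 16051 genes to test.

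At rest, the catalytic subunit encoded by Cybb and its partner encoded by Cyba sit in the membrane as a flavocytochrome, while the organiser encoded by Ncf1 and the adaptor encoded by Ncf4 stay in the cytosol. Phosphorylation of the organiser and loading of a Rac GTPase with GTP bring these parts together, and electrons then pass from NADPH to oxygen. Nox4 also needs the Cyba product, but it works without the cytosolic subunits or Rac, makes mainly hydrogen peroxide, and is known from fibroblasts, smooth muscle, endothelium and adipocytes. In adipose tissue the phagocyte enzyme is known chiefly from macrophages and neutrophils, and Rac2 and the cytosolic subunits are also found in lymphocytes.

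Transcripts were sequenced from adipose tissue of C57BL/6 mice, all wild type and 7 weeks old. Each of the 3 groups held 5 samples, and the groups were ungrafted control tissue, grafts taken at day 3 and grafts taken at day 7. The labels name no treatment or allele beyond grafting, and they do not give the fat depot, the recipient or the graft site. Whether each replicate is its own animal is not stated, so p-values measure only the spread between these samples, which may be technical. The comparison of grafts with control tissue asks how expression in the fat differed after grafting, and the comparison of day 7 with day 3 asks how it differed between the graft ages.

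Library depth, as the sum of estimated counts, lay between 17.1 and 31.8 M for controls, between 23.7 and 29.4 M for day 3 grafts and between 20.2 and 32 M for day 7 grafts. Levels are given as CPM, counts as a share of the scaled library size. Changes are log2 fold changes ± standard error (SE) from limma's moderated test on voom values, with Benjamini-Hochberg adjustment over the 16051 tested genes. Genes below an adjusted p of 0.05 are described as called, rising or falling. Some libraries stood apart. Control 4 had a summed level of 161 CPM over 11 B and T cell markers, against 1360 to 2265 CPM in the other controls. Control 5 had the highest macrophage and neutrophil sums of the controls. Control 2 had 2950.3 CPM of skeletal muscle markers against 18 to 236 CPM in the other controls. Day 3 graft 2 had the lowest summed level of the 4 leukocyte markers in its group (689.9 CPM against 1076 to 1455 CPM). Day 7 graft 5 had 316 CPM of smooth muscle and pericyte markers, against 1069 to 1167 CPM in the other day 7 grafts. In bulk tissue, more cells of a type and more RNA per cell cannot be told apart.

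Of the 6 genes, 5 were higher in the grafts than in control fat at both days, where 30.1% of all tested genes were called higher at day 3 and 32.2% at day 7. Those 5 were Cybb, Cyba, Ncf1, Ncf4 and Nox4. Rac2 had lower means in the grafts and was not called at either day, although its unadjusted p was under 0.05 at both. The median change over the 6 genes was 1.51 at day 3 and 1.46 at day 7, beside medians of -0.02 and 0.03 over all tested genes. The groups did not overlap for 2 of the 6 genes at day 3 and for 4 at day 7, where 40.5% and 42.5% of all tested genes had groups that did not overlap. None of the 6 was called between day 7 and day 3, where limma called 4.88% of tested genes. The alternative analyses, limma-trend and sample weights among them, called 0 to 2 of the 6. At an unadjusted p under 0.05, 1 of the 6 differed between the graft days, namely Nox4.

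**Figure D1:**
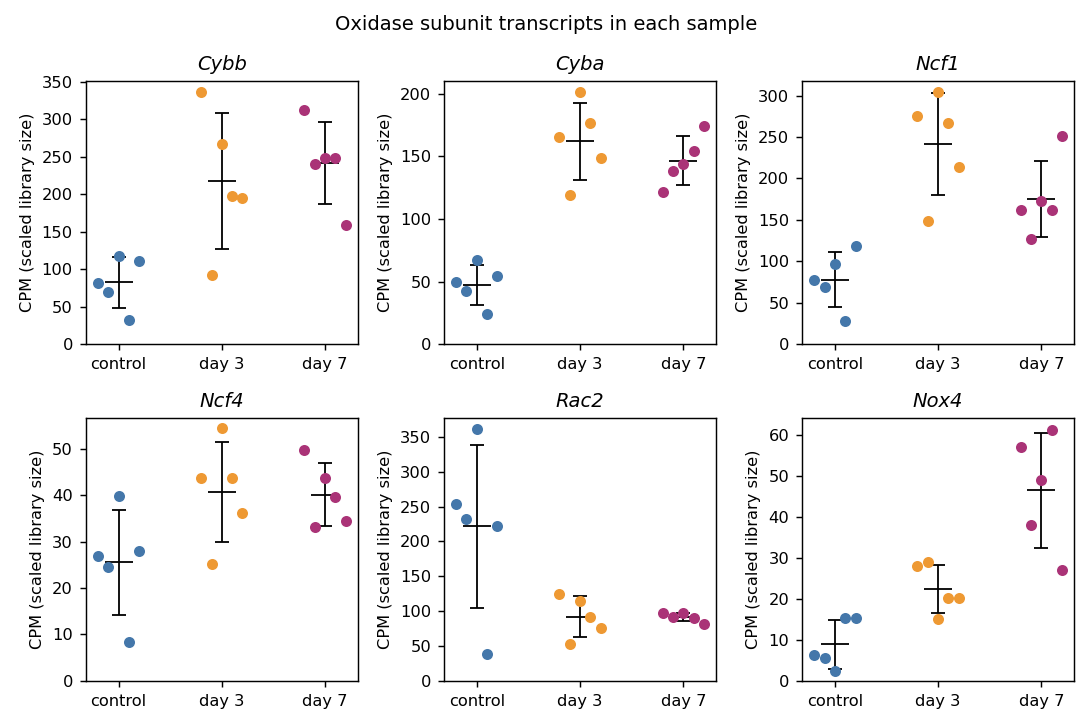
Levels of the 6 transcripts in CPM of the scaled library size (vertical axis) in controls, day 3 grafts and day 7 grafts, with 1 point per sample and bars for the mean ± SD of 5 samples. Cyba and Ncf1 of all grafts lie above all controls, control 4 has the lowest value of its group for Cybb, Cyba, Ncf1, Ncf4 and Rac2, and Nox4 is highest at day 7.

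Cybb (ENSMUSG00000015340, X:9435252-9487771 of mm10, minus strand) encodes the catalytic core of the phagocyte enzyme. Controls 1 to 5 had 81.9, 69.2, 118, 32.2 and 110.4 CPM. The day 3 grafts had 335, 91.9, 267, 197 and 195 CPM, and the day 7 grafts 312, 240.1, 248, 248 and 159 CPM. At day 3, graft 2 fell within the range of the controls and the other 4 grafts lay above it, while at day 7 all 5 grafts lay above all controls. Cybb rose from 82.3 ± 34.4 CPM (SD, n = 5) in controls to 217 ± 90.9 CPM at day 3, a log2 fold change of 1.42 ± 0.36 (limma, adjusted p = 0.00363). It stood at 241 ± 54.4 CPM at day 7, a rise of 1.65 ± 0.37 against control (limma, adjusted p = 0.00129). The difference between the graft days was 0.23 ± 0.38 (limma, adjusted p = 0.796) with a 95% interval from -0.58 to 1.05.

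Cyba (ENSMUSG00000006519, 8:122424776-122432930 of mm10, minus strand) encodes the small membrane subunit that stabilises both the Cybb product and Nox4. It had 49.6, 42.8, 67, 23.9 and 54.8 CPM in controls 1 to 5. The day 3 grafts had 165, 119, 201, 176 and 149 CPM, and the day 7 grafts 121, 138, 144, 155 and 174 CPM. All 10 grafts lay above all 5 controls, and the day 3 and day 7 values overlapped. Cyba had the smallest adjusted p of the 6 genes at both days, with a rise of 1.83 ± 0.23 at day 3 (limma, adjusted p = 1.16e-05) and of 1.69 ± 0.23 at day 7 (limma, adjusted p = 2.06e-05). Group means were 47.6 ± 15.9, 162 ± 30.7 and 146 ± 19.7 CPM (SD, n = 5 each) in controls, day 3 and day 7 grafts. The graft days differed by -0.14 ± 0.24 (limma, adjusted p = 0.811; 95% interval -0.64 to 0.37). A gene on the opposite strand, Gm20388, overlaps Cyba and had 100.04 ± 20.8, 139 ± 23.6 and 111 ± 12.7 CPM in the 3 groups. The library kit keeps strand, but no source used here says whether the counting used it, so reads of Cyba and Gm20388 may not be told apart.

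Ncf1 (ENSMUSG00000015950, 5:134220053-134229625 of mm10, minus strand) encodes the organiser, whose phosphorylation starts assembly. Controls 1 to 5 had 77.8, 69.1, 97, 28.2 and 118 CPM. The day 3 grafts had 276, 149, 304, 267 and 214 CPM, and the day 7 grafts 162, 127, 173, 162 and 251.6 CPM. All grafts again lay above all controls, and 4 of the 5 day 7 grafts lay below 4 of the 5 day 3 grafts. Ncf1 rose from 78 ± 33.6 CPM to 242 ± 61.5 CPM at day 3 (1.74 ± 0.33; limma, adjusted p = 0.00041). At day 7 it stood at 175 ± 46 CPM, a rise of 1.28 ± 0.33 (limma, adjusted p = 0.00351). The difference of day 7 from day 3, -0.46 ± 0.34, was not called (limma, adjusted p = 0.505; 95% interval -1.19 to 0.28). Gtf2ird2, on the opposite strand, overlaps Ncf1 and had at most 9.46 CPM in any sample.

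Ncf4 (ENSMUSG00000071715, 15:78244801-78262580 of mm10, plus strand) encodes the adaptor that binds a phosphoinositide of phagosome membranes. It had 26.9, 24.6, 39.9, 8.42 and 28 CPM in controls 1 to 5, 43.8, 25.2, 54.4, 43.7 and 36.1 CPM in the day 3 grafts, and 49.8, 33.2, 43.8, 39.6 and 34.5 CPM in the day 7 grafts. Grafts and controls overlapped at both days, and control 3 lay above 2 of the day 3 grafts and 3 of the day 7 grafts. The rise was the smallest among the 5 called genes, at 0.80 ± 0.32 at day 3 (limma, adjusted p = 0.0446) and 0.81 ± 0.32 at day 7 (limma, adjusted p = 0.0411), from 25.6 ± 11.3 CPM to 40.6 ± 10.8 and 40.2 ± 6.83 CPM (SD, n = 5). Both calls were near the threshold and were lost in several alternative analyses, the day 3 call in 18 of 27 and the day 7 call in 11 of 27. Among these was the fit without control 4, the lowest sample. Its changes were 0.42 at day 3 (limma, adjusted p = 0.101) and 0.42 at day 7 (limma, adjusted p = 0.0955). Leaving out the lowest control makes a rise smaller by itself. The 2 graft days differed by 0.01 (limma, adjusted p = 0.986; 95% interval -0.63 to 0.66).

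Rac2 (ENSMUSG00000033220, 15:78559167-78572783 of mm10, minus strand) encodes the Rac GTPase of blood cells, lymphocytes included. Controls 1 to 5 had 253, 232, 361, 38.2 and 223 CPM. The day 3 grafts had 125, 52.4, 115, 92 and 75.5 CPM, and the day 7 grafts 96.7, 92.1, 96.8, 89.9 and 81.9 CPM. Controls 1, 2, 3 and 5 lay above all 10 grafts, and control 4 lay below all of them. With all samples, the change of Rac2 was -1.03 ± 0.44 at day 3 (limma, adjusted p = 0.0564) and -0.98 ± 0.45 at day 7 (limma, adjusted p = 0.0694), from 221 ± 116 CPM to 92 ± 29.4 and 91.5 ± 6.12 CPM (SD, n = 5). Without control 4, Rac2 fell by 1.57 at day 3 (limma, adjusted p = 3.35e-05) and by 1.53 at day 7 (limma, adjusted p = 4.3e-05). Control 4 was singled out because its values stood apart, but Dixon's outlier test did not flag its Rac2 (Q of 0.57 against 0.71). The changes without it therefore do not replace those with all samples. The graft days differed by 0.05 (limma, adjusted p = 0.969; 95% interval -0.88 to 0.98).

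Lymphocyte markers moved beside Rac2. Among all tested genes, 30.3% were called lower at day 3 and 28.4% at day 7. The 6 B cell and 5 T cell markers all fell in the grafts at both days, and their summed level was 5.11 to 11.4 CPM at day 3 and 22.3 to 26.1 CPM at day 7, against 1360 to 2265 CPM in the 4 controls with high Rac2 and 161 CPM in control 4. The part of lymphocytes in the level of Rac2 was not tested.

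Nox4 (ENSMUSG00000030562, 7:87246096-87398710 of mm10, plus strand) encodes a catalytic chain that is active without the cytosolic subunits. Controls 1 to 5 had 6.23, 5.57, 2.31, 15.4 and 15.3 CPM. The day 3 grafts had 28, 29, 15.2, 20.3 and 20.3 CPM, and the day 7 grafts 57.2, 38.1, 49, 61.4 and 27.2 CPM. At day 3 graft 3 lay just below controls 4 and 5, and at day 7 every graft lay above every control. Nox4 rose from 8.96 ± 6.01 to 22.6 ± 5.84 CPM at day 3 (1.60 ± 0.43; limma, adjusted p = 0.00521) and to 46.6 ± 14 CPM at day 7 (2.62 ± 0.42; limma, adjusted p = 9.46e-05). The day 7 change of Nox4 was the largest of the 6. Between the graft days Nox4 differed by 1.02 ± 0.32, with a 95% interval from 0.33 to 1.71. That difference was not called over all genes (limma, adjusted p = 0.0851, unadjusted p = 0.00665), and it passed in 6 of 27 alternative analyses. Day 7 graft 5 had the lowest Nox4 of its group, and without it the difference was 1.20 (limma, adjusted p = 0.0324). Leaving out the lowest sample of the higher group raises the difference by itself. The difference also passed without control 3 (1.02, limma, adjusted p = 0.0455) and without control 4 (1.01, limma, adjusted p = 0.0403). These passes do not replace the test with all samples.

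**Figure D2:**
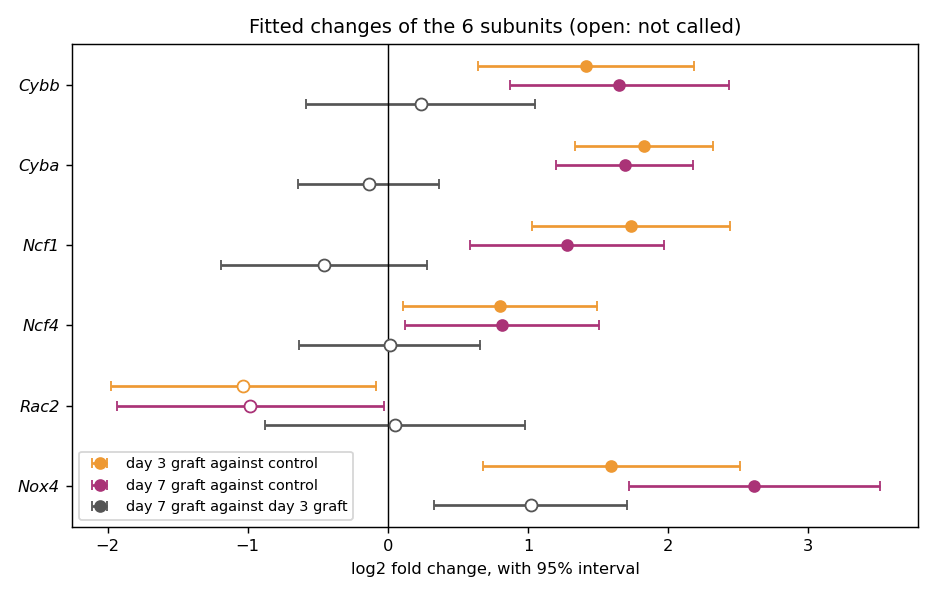
Fitted log2 fold changes with 95% intervals (horizontal axis) of the 6 genes in the 3 comparisons, from 5 samples per group. Filled points were called over all tested genes and open points were not: only Rac2 lies left of 0 against control, and the interval of Nox4 between the graft days, 0.33 to 1.71, lies right of 0 although the gene was not called.

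Markers of phagocytes moved in both directions. Of all tested genes, 30.1% were called higher and 30.3% lower at day 3, and 32.2% and 28.4% at day 7. All 8 macrophage markers rose at both days, from a summed level of 471 to 1438 CPM in controls to 2312 to 4542 CPM at day 3 and 3182 to 4573 CPM at day 7. Of 9 neutrophil markers, 8 were tested, and 5 rose and 1 fell at each day, with summed levels of 20.8 to 177, 78.3 to 458 and 155 to 938 CPM. The neutrophil granule genes Mpo and Elane stayed at or below 1.68 CPM in every sample. Of 5 dendritic cell markers 4 fell and 1 was not called at both days, with summed levels of 53.1 to 77 CPM in controls, 11.7 to 22.9 CPM at day 3 and 15.9 to 26.9 CPM at day 7. Of the 4 leukocyte markers, Cd53 rose at both days and Coro1a, Laptm5 and Ptprc were not called. The part of these cells in the changes of the subunits was not tested.

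Within the controls, the subunits followed the macrophage markers in some samples and not in others. Control 5 had the highest macrophage sum (1438 CPM) and neutrophil sum (177 CPM against 20.8 to 35.7 CPM in the other controls), the highest Ncf1 and the second highest Cybb, Cyba and Ncf4. Control 4 had the second highest summed macrophage level (828 CPM) and the lowest Cybb, Cyba, Ncf1, Ncf4 and Rac2. Control 3 had the lowest macrophage sum (471 CPM), the highest sum of B and T cell markers (2265 CPM), and the highest Cybb, Cyba, Ncf4 and Rac2 of the controls.

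**Figure D3:**
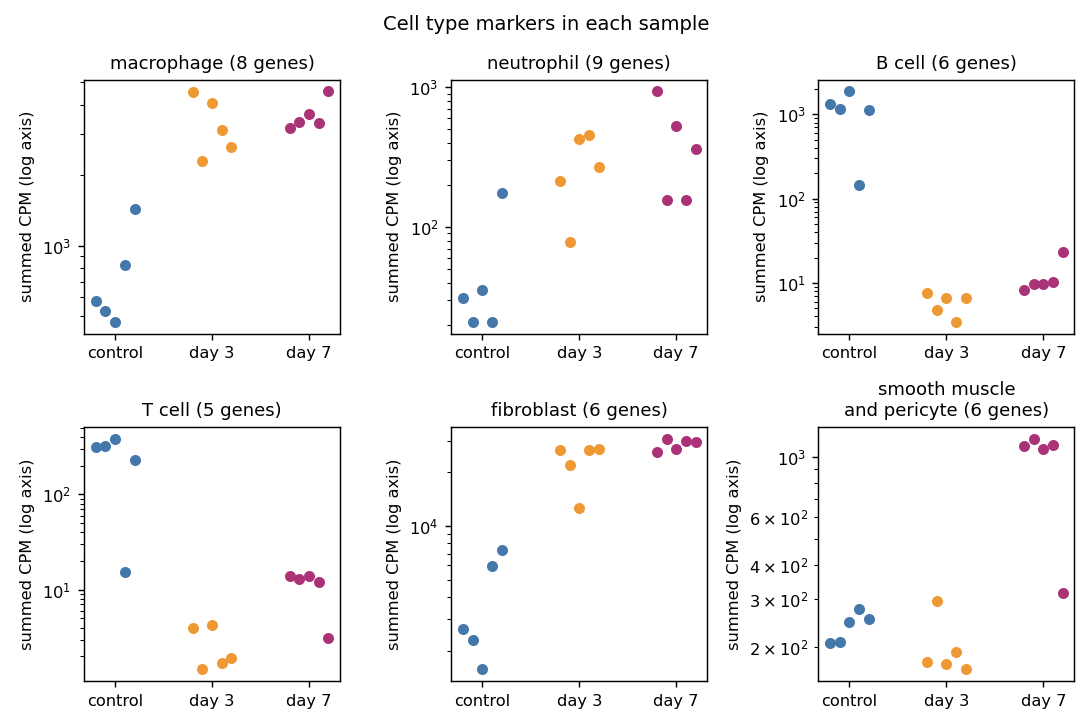
Summed CPM (vertical log axis, a separate scale in each panel) of markers of 6 cell types in each of the 15 samples. Macrophage sums of the grafts (2312 to 4573 CPM) lie above those of the controls (471 to 1438 CPM), B and T cell sums lie below them, and smooth muscle and pericyte sums separate 4 day 7 grafts (1069 to 1167 CPM) from the remaining samples.

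For Nox4, markers of 4 other cell types known to express it were read beside it: fibroblasts, smooth muscle and pericytes, endothelium and adipocytes. Against control, 30.1% of all tested genes were called higher at day 3 and 32.2% at day 7, and 30.3% and 28.4% were called lower. Summed fibroblast markers were 1574 to 7336 CPM in controls, 12566 to 26843 CPM at day 3 and 25759.9 to 30786 CPM at day 7, with 4 and 5 of 6 genes called higher. Summed smooth muscle and pericyte markers were 207 to 276 CPM in controls and 166 to 294 CPM at day 3, where 1 of 6 genes rose, 1 fell and 4 were not called. At day 7 they were 316 CPM in graft 5, which had the lowest Nox4 of its group, and 1069 to 1167 CPM in the other 4. By contrast, day 7 graft 2 had the highest smooth muscle and pericyte sum (1167 CPM) and fibroblast sum (30786 CPM) of its group, but the second lowest Nox4 (38.1 CPM). Of the 6 smooth muscle and pericyte markers 5 were higher at day 7 than at day 3, where 3.18% of all tested genes were called higher. Of 6 endothelial markers 5 rose at both days, with summed levels of 395 to 513 CPM in controls, 424 to 1412 CPM at day 3 and 598 to 1145 CPM at day 7, and all 6 adipocyte markers fell at both days. Controls 4 and 5 had both the highest Nox4 and the highest fibroblast sums of their group (5973 and 7336 CPM). The part of these cells in the level of Nox4 was not tested.

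To see whether the subunits moved by as much as the macrophage markers, the log2(CPM + 1) of each gene was taken minus the mean log2(CPM + 1) of the 8 markers. The 3 comparisons of 6 genes made 18 exact two-sided permutation tests, each over all arrangements of 5 against 5 samples, with a smallest possible p of 0.00794. For Rac2 this value was 2.29, 2.42, 3.13, -0.86 and 0.65 in controls 1 to 5, -2.23 to -1.84 at day 3 and -2.47 to -1.74 at day 7. All grafts lay below all controls, control 4 included. Rac2 therefore stood 3.48 lower relative to the markers at day 3 and 3.50 lower at day 7 (differences of -3.48 and -3.50; exact permutation p = 0.00794, adjusted p = 0.0476 each).

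The remaining genes had negative differences against control that did not pass the test. Relative to the markers, Ncf4 was at -1.71 at day 3 and -1.78 at day 7 against control (exact permutation, adjusted p = 0.0571 each). The differences for Cybb were -1.07 and -0.90 (exact permutation, adjusted p = 0.171 each). For Cyba they were -0.66 (exact permutation, adjusted p = 0.204) and -0.87 (adjusted p = 0.198). Ncf1 was at -0.75 at day 3 (exact permutation, adjusted p = 0.19) and -1.28 at day 7 (adjusted p = 0.102), and Nox4 at -1.01 (exact permutation, adjusted p = 0.0714) and -0.09 (adjusted p = 0.849). Ncf1 was the only gene to pass between the graft days: it lay at -0.77 to -0.31 at day 3 and -1.38 to -0.86 at day 7, with no overlap and a difference of -0.53 (exact permutation p = 0.00794, adjusted p = 0.0476). The calls of Rac2 against control and of Ncf1 between the graft days ended when any 1 graft of the comparison was left out, at adjusted p from 0.0571 to 0.0714 by the same exact permutation test. Groups that do not overlap stay so with 1 sample fewer. Leaving out a graft or a control left 126 arrangements in either case, and the calls of Rac2 were kept with each control left out. Why the calls ended without a graft was not tested.

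Control 4 bore on these values too. Without it, relative to the markers, Cybb passed at -1.41 at day 3 and -1.25 at day 7, Ncf1 at -1.12 and -1.64, Ncf4 at -2.10 and -2.16, and Cyba at -1.14 at day 7 (exact permutation, adjusted p from 0.0179 to 0.0429). Control 4 was singled out here because its values stood apart, so these passes do not replace the tests with all samples. The direction against control depended on the reference for every gene but Rac2. Relative to Ptprc, the common leukocyte antigen, which lymphocytes also carry, Cybb was higher in the grafts by 2.09 at day 3 and 2.33 at day 7, Cyba by 2.49 and 2.36, Ncf1 by 2.41 and 1.96, and Ncf4 by 1.45 and 1.45 (exact permutation, adjusted p = 0.0179 each). Relative to Ptprc, Rac2 was at -0.32 at day 3 (exact permutation, adjusted p = 0.0317) and -0.27 at day 7 (adjusted p = 0.265).

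**Figure D4:**
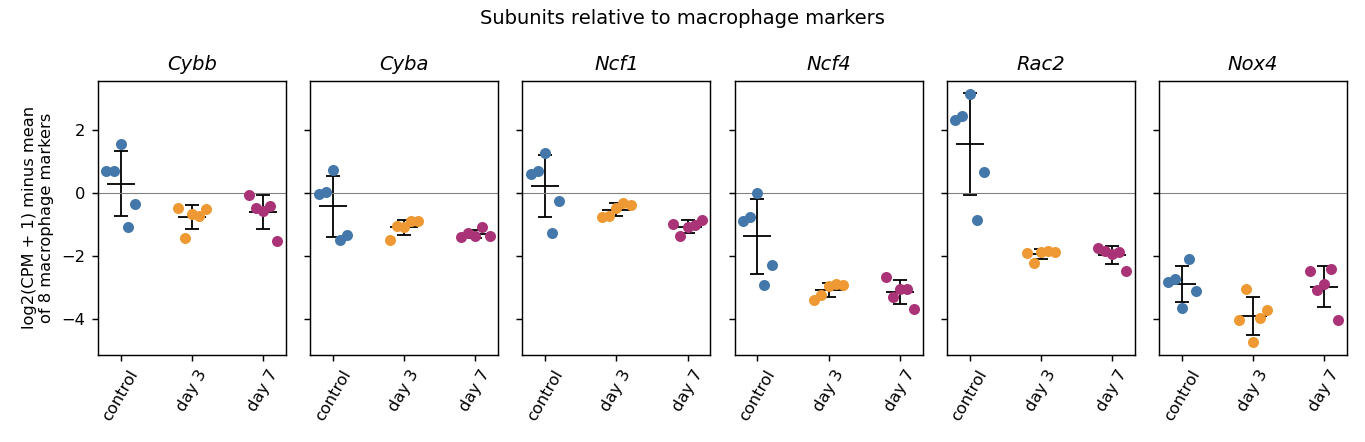
log2(CPM + 1) of each gene minus the mean log2(CPM + 1) of 8 macrophage markers (vertical axis) in controls, day 3 grafts and day 7 grafts, with 1 point per sample and bars for the mean ± SD of 5 samples. The controls spread more widely than the grafts for each gene but Nox4, whose SD was 0.56 in controls, 0.60 at day 3 and 0.65 at day 7. Rac2 is the gene whose grafts (-2.47 to -1.74) lie wholly below its controls (-0.86 to 3.13).

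Levels of different genes were compared per transcript length, on the deposited TPM, which is scaled for both length and depth, as a description with no test. In control fat the order of mean TPM was Rac2 (141 ± 89.5), Cyba (114 ± 54.1), Ncf4 (41.7 ± 25), Ncf1 (39.9 ± 20.2), Cybb (22.4 ± 12.1) and Nox4 (2.71 ± 1.72), each as mean ± SD of 5 samples. In the day 3 grafts it was Cyba (442 ± 77.6), Ncf1 (138 ± 33.9), Cybb (71.1 ± 32.5), Rac2 (69.9 ± 17.7), Ncf4 (66.5 ± 12.5) and Nox4 (9.10 ± 2.54). The order at day 7 was the same, with Cyba at 435 ± 48.8, Ncf1 at 106 ± 20.1, Cybb at 82.6 ± 19.7, Rac2 at 78.5 ± 21.1, Ncf4 at 70.6 ± 16.2 and Nox4 at 20.2 ± 6.88 TPM. Neighbours in these orders overlapped in range, except Cybb above Nox4 in controls, and Cyba above Ncf1 and Ncf4 above Nox4 at both graft days. Rac2 thus went from the top of the order in control fat to a mean between those of Cybb and Ncf4 in the grafts.

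**Figure D5:**
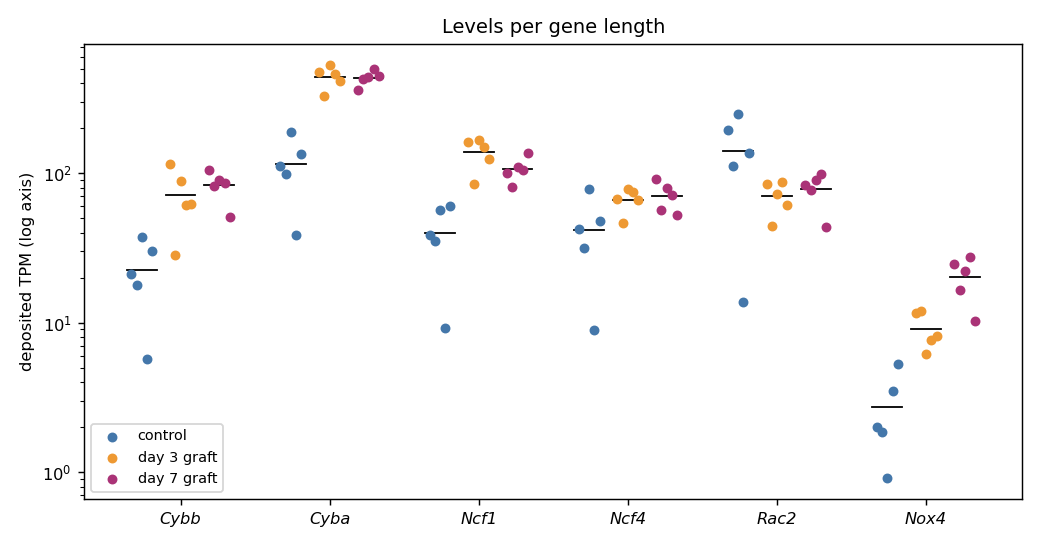
Deposited TPM of the 6 genes (vertical log axis) in each sample, with black bars at the mean of 5 samples per group. Cyba leads in the grafts at 442 and 435 TPM, Rac2 leads in controls at 141 TPM, and Nox4 is lowest in all 3 groups.

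Ratios of TPM within a sample do not depend on library scaling, and they show how the proportions of the subunits differed between groups. Rac2 over Cybb had a median of 6.23 in controls (range 2.41 to 9.32), 0.992 at day 3 (0.731 to 1.55) and 0.946 at day 7 (0.792 to 1.15). The controls and grafts did not overlap in this ratio, control 4 included. Ncf4 over Cybb was 1.58 to 2.09 in controls, 0.586 to 1.61 at day 3, which overlapped the controls, and 0.693 to 1.03 at day 7, which did not. Ncf1 over Ncf4, the organiser over the adaptor, was 0.727 to 1.26 in controls, 1.84 to 2.41 at day 3, and 1.09 to 2.58 at day 7, where the highest value was that of graft 5. By contrast, Cyba over Cybb, the 2 chains of the flavocytochrome, overlapped in all 3 groups, with medians of 5.34, 6.66 and 5.24. Ncf1 over Cybb had a narrow range in controls, 1.52 to 1.99, with control 4 at 1.62. Cybb over Nox4, the phagocyte over the non-phagocyte catalytic chain, ranged from 1.63 to 40.9 in controls and from 3.14 to 4.98 at day 7.

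The profiles of the 6 genes over the 15 samples were also compared with each other and with 9783 candidate genes, by the root-mean-square difference of centred log2(CPM + 1), where 0 is an identical shape. Among the 6, Cyba and Ncf1 were closest (0.28) and Rac2 and Nox4 farthest apart (1.84). The 4 nearest genes were Espl1, Tnfrsf1b, Otulinl and Arhgap11a for Cybb (0.25 to 0.28), and Clic1, Sept9, Efhd2 and Naip6 for Cyba (0.16 to 0.20). They were Ubash3b, Apbb1ip, Pik3r5 and Cdk6 for Ncf1 (0.14 to 0.24), and Tbc1d1, Elf4, Hcls1 and Trpv2 for Ncf4 (0.16 to 0.19). Rac2 was nearest to Sash3, Ikzf1, Akna and Arhgap15 (0.14 to 0.21), of which Ikzf1 encodes a transcription factor of lymphocytes. Nox4 was nearest to Col6a1, Tbx18, Col6a2 and Olfml2b (0.35 to 0.39), of which Col6a1 and Col6a2 encode collagen VI chains. All the genes compared share the same 15 libraries, so the likeness is a description and carries no test.

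Among 5 partners of the enzyme described here, 2 rose, 2 fell and 1 was not called at both days. Beside them, 30.1% of all tested genes were called higher and 30.3% lower at day 3, and 32.2% and 28.4% at day 7. Rac1, the widely expressed Rac GTPase that can take the place of Rac2, rose from 231 ± 31.7 CPM to 462 CPM at day 3 (1.02 ± 0.10; limma, adjusted p = 1.98e-06) and 399 CPM at day 7 (0.80 ± 0.10; limma, adjusted p = 1.28e-05). Rap1a, a small GTPase that copurifies with the flavocytochrome, rose by 0.76 and 0.40, the day 7 call being lost in 4 of 27 alternative analyses.

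Hvcn1, the proton channel that offsets the charge the oxidase moves and is abundant in B cells, fell. It had 187, 157, 252.4, 26.1 and 138 CPM in controls 1 to 5, 6.26 to 12.6 CPM at day 3 and 12.1 to 39.3 CPM at day 7. The log2 fold change was -3.89 ± 0.59 at day 3 (limma, adjusted p = 6.52e-05) and -2.11 ± 0.49 at day 7 (limma, adjusted p = 0.00182). Control 4 was again the lowest control, as for Rac2 and the B and T cell markers. Poldip2, which binds Cyba and raises Nox4 activity, changed by -1.04 at day 3 and -0.92 at day 7 and was called lower at both. Cybc1, the chaperone of the Cybb product, was not called.

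Other NADPH oxidase genes were scarce. Of 8 listed, Nox1, Nox3, Noxa1, Duox2 and Duoxa2 were at or below 0.53 CPM in every sample and were not tested. Duox1, a dual oxidase, had a mean of 6.53 CPM at day 3 and Duoxa1, its maturation factor, 4.29 CPM. Nox4 was thus the only catalytic chain besides Cybb with a mean over 10 CPM in any group.

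Most genes of the receptors that start the burst rose with the subunits. Of 12 listed genes of these receptors and their proximal signalling, which include the adaptor chain Fcer1g and the cytosolic kinase Syk, 11 rose at both days and Syk was not called, with a median change of 2.98 at day 3 and 2.90 at day 7. Over all tested genes, 30.1% were called higher at day 3 and 32.2% at day 7, with medians of -0.02 and 0.03. Fcgr1, the high-affinity IgG receptor and also a macrophage marker here, rose by 4.52 ± 0.42 at day 3 (limma, adjusted p = 8.54e-07) and by 3.46 ± 0.41 at day 7 (limma, adjusted p = 5.69e-06). Itgam, the alpha chain of complement receptor CR3, had 28.9 to 149 CPM in controls and 450.4 to 1464 CPM at day 3, and rose by 4.22 and 3.49. C5ar1, the receptor of the complement fragment C5a, rose by 3.93 and 3.74.

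Of 17 genes that carry the signal to the oxidase, 9 rose at each day and 2 fell at day 3, and the rest were not called. Beside them, 30.1% of all tested genes were called higher and 30.3% lower at day 3, and 32.2% and 28.4% at day 7. S100a9 and S100a8, which bring arachidonic acid to the enzyme and are also neutrophil markers, had the largest rises of the 17. They rose by 3.65 ± 0.95 and 3.32 ± 1.09 at day 3 and by 4.13 ± 0.96 and 4.00 ± 1.08 at day 7. For both genes grafts and controls overlapped at both days, with control 5 at 67.1 CPM of S100a9 and 33.5 CPM of S100a8. Pla2g4a, the phospholipase that releases arachidonic acid, rose by 2.37 at day 3 and Pak1, a Rac-regulated kinase, by 2.33 at day 7. Among the protein kinase C genes, whose products phosphorylate the organiser, Prkcd rose from 79.1 ± 27.6 CPM (SD, n = 5) to 164 CPM at day 3 and 168 CPM at day 7, by 1.13 ± 0.27 (limma, adjusted p = 0.00225) and 1.17 ± 0.27 (limma, adjusted p = 0.00172). Prkcb changed by -1.26 and Prkca by -0.94 at day 3 and both were called lower, Prkcb with a call lost in 7 of 27 alternative analyses. Prkca was the only one of the 17 called between the graft days, higher at day 7 by 0.60 (limma, adjusted p = 0.0497), a call lost in 19 of 27 alternative analyses.

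Among regulators of subunit transcription, Spi1, the myeloid factor that binds the Cybb and Ncf genes, rose by 1.86 ± 0.28 at day 3 (limma, adjusted p = 5.81e-05) and 1.81 ± 0.28 at day 7 (limma, adjusted p = 6.93e-05). Irf1, which takes part in the induction of Cybb by interferon gamma, was lower at both days (-0.68 and -0.83). Irf8 and Elf1 were not called, and Cebpe had means of at most 0.8 CPM.

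Of 5 enzymes that supply NADPH, 2 fell at day 3 and 3 at day 7, and the rest were not called. The share of all tested genes called lower was 30.3% at day 3 and 28.4% at day 7. Me1, malic enzyme of adipocytes and other cells, was at 792 to 3262 CPM in controls and 45.7 to 75.8 CPM in all grafts, with a change of -5.05 ± 0.27 at day 3 (limma, adjusted p = 3.82e-08) and -5.24 ± 0.27 at day 7 (limma, adjusted p = 1.43e-08). Pgls, of the pentose phosphate pathway, was also lower at both days (-0.54 and -0.62), and G6pdx, the first enzyme of that pathway, was lower at day 7 (-0.68). Adipocyte markers fell beside them, with all 6 lower at both days and summed levels of 3369 to 10300.4 CPM in controls, 359.9 to 1308 CPM at day 3 and 139 to 328 CPM at day 7. The part of adipocytes in the fall of these enzymes was not tested.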

How the data were processed

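The authors deposited 1 matrix of 55471 genes holding, for 15 samples, estimated counts, RPKM and TPM in 45 value columns, all mapped by sample number. Tools listed in the submitters' processing notes, with no roles, are RSEM 1.3.1, STAR 2.7.1a and cutadapt 2.8, with build mm10. Libraries were stranded mRNA with 151 bp paired reads, per the labels' protocols. The deposited estimated counts are whole numbers without scaling, per the file headers and values. Because they are written with digit separators, their unit was recorded as other, and limma-voom was used. The authors' deposited RPKM values were not used. The deposited TPM values, scaled by the authors to the same total in each sample, gave levels between genes and 1 alternative fit.

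Genes entered with a CPM of at least 0.3894 (10 counts at the median library) in 5 or more samples and a total of 15 counts or more. Library scaling took trimmed means of M-values (trims of 30% and 5%). The 15 samples entered 1 fit of 3 group means with limma 3.58.1 in R 4.3.3, and adjusted p-values are Benjamini-Hochberg over 16051 genes. Ratios used log2(CPM + 1) and exact permutation. The 6 genes, the 71 pathway genes found of 72 listed, and the 66 marker genes were chosen with earlier results of these data known. Named pathway genes were called members of a list, up to the 3 largest rises and falls per comparison with at least 10 CPM in 1 group, those at or near 0, and single genes left over by a count; Duox1, Duoxa1, C5ar1 at day 3, Prkcd, Fcer1g and genes given as not called were named after their values were seen. Candidates for likeness needed a mean of 10 CPM. Alternatives changed scaling, filter, samples, sample weights, unit and pseudocount, used a replicate block, and left out each sample. The replicate numbers were not treated as pairs in the main fit. Values of 2 listed pathway genes are left out here. The fit was tested on simulated counts. Plots used Python 3.11.15 with matplotlib 3.10.9.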

Additional observations from a re-analysis of the deposited data

How the results depend on the processing

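Cybb, Cyba, Ncf1 and Nox4 kept their direction and their calls against control in all 27 alternative fits at both days, and the count of called members was 4 to 6 at each day. Between the graft days that count was 1 with only the 2 groups compared, 1 without day 3 graft 1 and day 7 graft 5 together, 2 with sample quality weights (Nox4 at 1.26 and Ncf1 at -0.62), and 0 to 1 when single samples were left out. Over all genes, 784 were called between the graft days, 3668 with quality weights, 1395 with only the 2 groups, and 321 to 1525 when single samples were left out. Differences between graft days close to 0 changed sign. Ncf4 was at -0.0124 with median-of-ratios scaling, -0.0120 without the 50 most abundant genes, -0.000877 with no filter, -0.000245 with only the 2 groups and -0.0332 with quality weights. Leaving out single samples gave -0.0415 to 0.42 for Cybb, -0.15 to 0.13 for Ncf4 and -0.13 to 0.18 for Rac2. Rac2 was also called lower at day 3 with upper-quartile scaling (-1.12), with quality weights (-1.39) and without day 3 graft 1 (-1.16), and at day 7 with quality weights (-1.38). On log2(TPM + 1) Rac2 was at -0.57 at day 3 (limma, adjusted p = 0.411) and -0.41 at day 7 (limma, adjusted p = 0.546). The median of all genes moved to -0.18 at day 3 and -0.12 at day 7 with no filter and to 0.12 at day 7 with library totals. On the same TPM scale it was 0.22 at day 3 and 0.33 at day 7, and 68% and 74.1% of called genes were higher, against 49.9% and 53.1% in the CPM fit. The cause of these changes was not tested.

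Relative to the macrophage markers, leaving out single samples gave, for Cybb, -1.41 to -0.76 at day 3 and -1.25 to -0.59 at day 7 against control, for Cyba -1.14 to -0.59 at day 7, and for Ncf1 -1.12 to -0.48 and -1.64 to -1.01. For Ncf4 the ranges were -2.10 to -1.37 and -2.16 to -1.44, for Rac2 -4.08 to -3.08 and -4.10 to -3.10, and for Nox4 -0.28 to 0.17 at day 7. Between the graft days they were -0.59 to -0.45 for Ncf1, -0.18 to 0.0701 for Ncf4 and -0.0916 to 0.10 for Rac2. The tests of Rac2 against control passed with each control left out and missed the threshold with any graft left out. That of Ncf1 between the graft days missed it with any graft left out. Leaving out a sample of either group left 126 arrangements. With Ptprc as denominator the signs turned for Cybb (2.09 and 2.33), Cyba (2.49 and 2.36), Ncf1 (2.41 and 1.96), Ncf4 (1.45 and 1.45, and 0.0081 between the graft days) and Nox4 (2.14 and 3.14), while Rac2 stood at -0.27 at day 7 and 0.0512 between the graft days, and Ncf1 at -0.46 between them. A pseudocount of 0.1 put Nox4 at 0.0497 at day 7. The cause was not tested.

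The replicate numbers were not treated as pairs. Of 15 pairs with the same number, 5 had a correlation of deviations over 0.1 and in 3 the samples matched best with their own number. Such weak correlations cannot exclude that samples with the same number shared a source. With the replicate number as a block, 9726, 9725 and 659 genes were called in the 3 comparisons in place of 9688, 9736 and 784, and 5, 5 and 0 of the 6 members, as without the block. Depth limits Nox4 most: its lowest count in a library, 51, was the lowest of the 6.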

Other observations

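Enzymes that remove the oxidase's products were called in both directions, in shares near those of all tested genes at day 7. Of 12 such genes, 7 rose and 3 fell at day 3, where 30.1% of all tested genes were higher and 30.3% lower. At day 7, 4 rose and 4 fell, beside 32.2% and 28.4% of all tested genes. Prdx1, a peroxiredoxin, rose from 526 ± 171 CPM (SD, n = 5) to 1269.8 CPM at day 3 and 1723 CPM at day 7, where its log2 fold change was 1.77 ± 0.23 (limma, adjusted p = 0.000171 at day 3 and 1.29e-05 at day 7). Txn1, which recharges peroxiredoxins, rose by 1.19 and 1.03. Cat, catalase, was at 727 ± 338 CPM in controls, 142 CPM at day 3 and 159 CPM at day 7, with changes of -2.24 ± 0.21 (limma, adjusted p = 8.54e-07) and -2.08 ± 0.21 (limma, adjusted p = 1.42e-06). Sod1, the cytosolic superoxide dismutase, changed by -1.31 and -1.44, and Gpx4, which reduces lipid peroxides, by -1.30 and -1.37, all 4 values called lower.

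Among 5 other enzymes that make oxidants, Nos2, the inducible nitric oxide synthase, had 1.80 to 5.56 CPM in controls, 57.7 to 181 CPM at day 3 and 12.6 to 69.9 CPM at day 7, and rose by 4.61 ± 0.67 (limma, adjusted p = 4.01e-05) and 3.62 ± 0.67 (limma, adjusted p = 0.000296). Nos3, the endothelial form, was lower at both days (-1.26 and -1.81), while 5 of 6 endothelial markers rose. Mpo, which turns hydrogen peroxide into hypochlorite in neutrophils, was at or near 0 in all 15 samples.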
